A study of Mus musculus with 2 samples.

Results

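Collagens, laminins and the proteins that bind them in basement membranes were followed gene by gene through the cells of mouse pancreatic islets. The genes were chosen by name: every symbol of the form Col, number, a, number or Lama, Lamb or Lamc with a number, together with Fn1, Sparc, Nid1, Nid2 and Hspg2, if at least 20 unique molecular identifiers (UMIs, the tags that mark single RNA molecules) were counted over all cells. Of 31053 listed genes 60 matched the names and 50 passed the minimum. The 10 that did not pass were Col12a1 with 17 UMIs, Col4a6 with 16, Col23a1 with 8, Col9a1 and Lama1 with 4 each, Col22a1 and Col24a1 with 3 each, Col10a1 with 2, and Col17a1 and Col2a1 with 1 each.

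Islets came from C57BL/6J mice aged 13 weeks that were given a high-fat diet (HFD, 1 library) or belonged to a group labelled CD (1 library), a name the labels do not expand. In both groups the pancreas was digested with collagenase P through the bile duct, and islets were cleaned by density centrifugation and hand selection, broken up into cells by TrypLE and loaded for 10x Genomics 3′ v3 single-cell RNA sequencing. The number of mice behind each library is unknown here. The study's stated aim was to look for subgroups among the alpha, beta and delta cells under a diet that models prediabetes.

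Collagen IV and laminin each assemble into a sheet-like network, and nidogens and perlecan tie the sheets together into the basement membrane that lies under endothelial and epithelial cells and around pericytes. Fibrillar collagens build the stroma beyond it, collagen VI forms beaded filaments at the border of both, and Sparc is a secreted protein that binds collagen. In mouse islets the basement membrane that beta cells touch is known to be made largely by capillary endothelial cells.

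Promoter windows are shown for the collagen IV pair that leads among the endothelial genes and for the fibrillar pair that leads among the mesenchymal ones. They run from 250 bases before to 50 bases after the start site in RefSeq on GRCm38.p6, 5′ to 3′ on the gene's own strand, in lower case. Capitals mark 3 motifs on either strand: CCAAT (the CCAAT box), then GGGCGG (here called the GC box), and last TATAAA (the TATA box). The Col4a1 window lay on the minus strand at chr8:11312777-11313076, the Col4a2 window on the plus strand at chr8:11312555-11312854, the Col1a2 window on the plus strand at chr6:4505368-4505667 and the Col3a1 window on the plus strand at chr1:45311288-45311587.
Col4a1: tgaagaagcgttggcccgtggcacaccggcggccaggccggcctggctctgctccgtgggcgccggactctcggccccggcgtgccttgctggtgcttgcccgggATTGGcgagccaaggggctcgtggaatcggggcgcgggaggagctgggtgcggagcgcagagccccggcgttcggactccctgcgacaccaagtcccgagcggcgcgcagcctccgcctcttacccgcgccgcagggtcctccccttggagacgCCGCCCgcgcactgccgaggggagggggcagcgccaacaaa
Col4a2: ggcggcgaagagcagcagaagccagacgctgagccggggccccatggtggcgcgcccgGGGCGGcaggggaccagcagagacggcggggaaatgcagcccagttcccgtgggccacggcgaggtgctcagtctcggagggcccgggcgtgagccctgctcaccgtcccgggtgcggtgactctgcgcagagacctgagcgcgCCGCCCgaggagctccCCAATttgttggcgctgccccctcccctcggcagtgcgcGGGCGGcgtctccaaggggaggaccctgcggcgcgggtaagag
Col1a2: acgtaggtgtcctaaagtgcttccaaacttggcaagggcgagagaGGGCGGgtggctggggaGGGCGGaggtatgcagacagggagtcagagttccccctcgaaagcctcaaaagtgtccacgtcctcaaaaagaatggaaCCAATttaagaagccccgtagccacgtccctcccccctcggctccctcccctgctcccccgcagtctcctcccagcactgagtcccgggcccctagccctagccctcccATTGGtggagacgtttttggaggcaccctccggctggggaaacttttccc
Col3a1: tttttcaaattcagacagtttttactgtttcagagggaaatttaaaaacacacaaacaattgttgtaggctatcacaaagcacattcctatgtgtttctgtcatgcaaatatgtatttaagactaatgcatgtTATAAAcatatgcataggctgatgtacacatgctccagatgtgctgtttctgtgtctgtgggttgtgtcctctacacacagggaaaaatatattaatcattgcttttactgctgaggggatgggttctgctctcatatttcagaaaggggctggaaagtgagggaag

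Col4a1 and Col4a2 lie on opposite strands with start sites 21 bases apart, each start inside the other gene. Their 5′ ends thus overlap, and their windows shared 78 bases read on opposite strands. The Col4a1 window held 1 CCAAT box and 1 GC box, and the Col4a2 window 1 CCAAT box and 3 GC boxes. The Col1a2 window held 2 CCAAT boxes and 2 GC boxes, and the Col3a1 window 1 TATA box. RefSeq gave windows for 37 of the 50 genes, 40 windows in all. A GC box stood in 65.0% of these 40 windows, against 35.7% of all 32851 windows of the same length. A CCAAT box stood in 32.5% of them, against 37.4% of all, and a TATA box in 7.5%, against 13.6% of all. No motif overlaps another in its letters, and a match is a description of the sequence only.

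The HFD library held 271527648 UMIs and the CD library 265836346. After removal of likely doublets 10898 HFD cells and 8919 CD cells were kept, of which 23 barcodes occurred in both libraries. Cells were clustered without the 50 genes and named from markers that include none of them. The classes held 208 and 149 mesenchymal-like cells (HFD and CD), 522 and 334 endothelial-like, 218 and 160 macrophage-like, 59 and 20 ductal-like, 6316 and 5030 beta-like, 2033 and 1151 alpha-like, 695 and 581 delta-like, and 534 and 340 PP-like. Mesenchymal-like cells showed 11 of 12 mesenchymal markers in at least 10% of HFD cells and 12 of 12 in CD cells. They also carried hormone RNA, with the 9 beta markers summing to 217990 CPM (the usual scale of counts per 1000000 UMIs) in HFD and 143087 in CD. Endothelial-like cells showed 10 of 11 endothelial markers in both libraries, with beta markers at 100372 CPM in HFD and 46922 in CD. Delta-like cells showed 3 of 5 delta markers in both libraries, summing to 102427 CPM in HFD and 93855 in CD. Their PP markers summed to more, 112673 CPM in HFD and 121103 in CD. With each cell named by its own marker score, 104 HFD and 77 CD cells were delta-like, and 2134 HFD and 1465 CD cells PP-like. The share of free RNA was estimated from barcodes with 10 to 100 UMIs and again from those with 100 to 500 UMIs. In mesenchymal-like cells the first estimate was 42.5% in HFD and 34.2% in CD, and the second 32.7% in HFD and 15.2% in CD. In endothelial-like cells the first was 27.8% in HFD and 14.4% in CD, and the second 20.2% in HFD and 6.54% in CD. In beta-like cells the first was 5.62% in HFD and 4.81% in CD, and the second 1.16% in HFD and 0.587% in CD. Every one of these estimates was higher in HFD, and the second was so in every class. The first was lower in HFD in macrophage-like (26.7% in HFD, 37.7% in CD), alpha-like (7.26% and 10.9%) and delta-like cells (11.8% and 16.4%). In ductal-like and PP-like cells the first was higher in HFD. The part of hormone and free RNA in the results was not tested, beyond the values with free RNA subtracted and without hormone-rich cells that stand beside the mesenchymal and beta counts.

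Mesenchymal-like and endothelial-like cells held most of the RNA of these genes although they were few. The 50 genes together made 8561 CPM in HFD mesenchymal-like cells (95% counting interval 8341 to 8786) and 5517 CPM in CD ones (5312 to 5728). In endothelial-like cells they made 7464 CPM in HFD (7364 to 7564) and 6204 CPM in CD (6092 to 6317). Ductal-like cells came next, at 706 CPM in HFD and 680 CPM in CD. Macrophage-like cells held 111 CPM in HFD and 76.7 CPM in CD, alpha-like cells 67.5 and 64.2 CPM, delta-like cells 77.1 and 62.1 CPM, beta-like cells 31.3 and 33.9 CPM, and PP-like cells 29.1 and 28.6 CPM, given for HFD and then CD. A level in CPM is the sum of UMIs over all cells of a class divided by all UMIs of that class, scaled by edgeR's trimmed mean of M values (TMM). Since each molecule is tagged once at its 3′ end, levels of different genes are not divided by length. With 1 library per diet no test between diets was possible, and every interval covers counting error only.

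**Figure D1:**
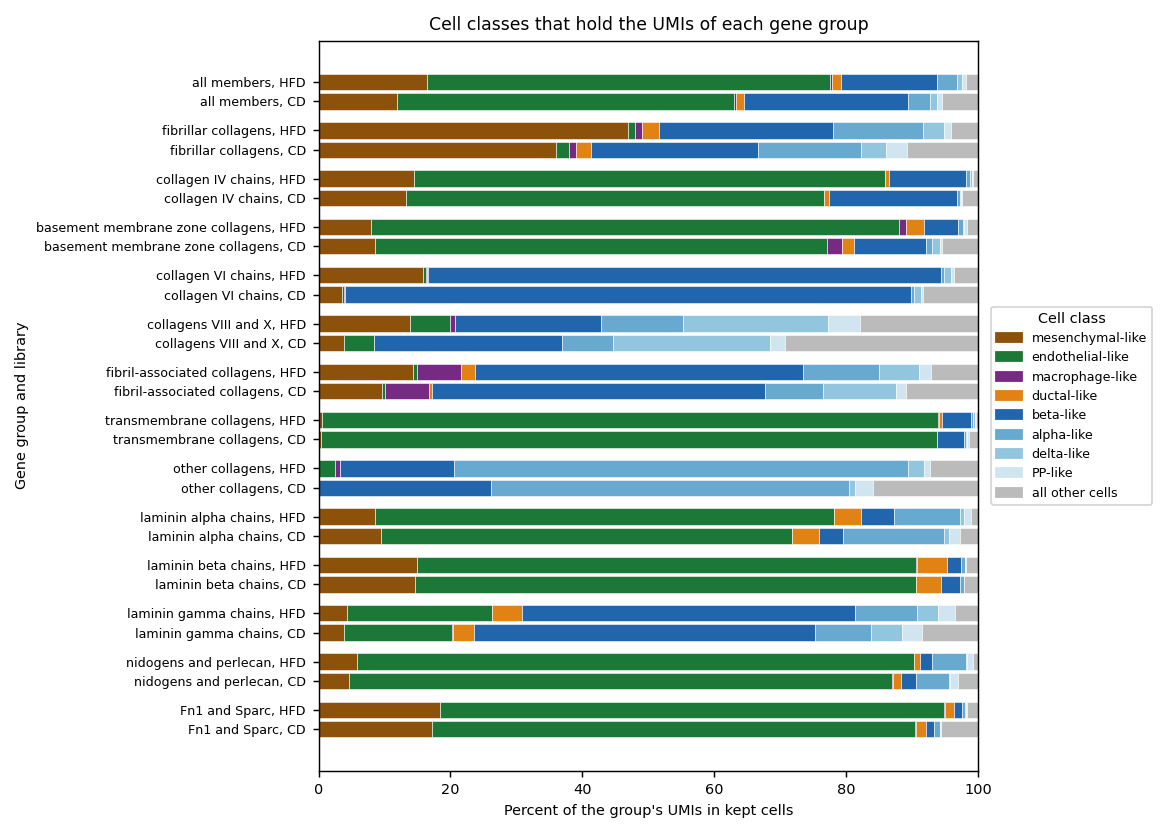
Percent of all UMIs of each gene group (x axis) that lay in each cell class (colours), with HFD above CD for each group. Endothelial-like cells hold the largest share of collagen IV (71.3% in HFD, 63.4% in CD), and beta-like cells that of collagen VI (77.8% in HFD, 85.8% in CD).

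Beta-like cells, which were many and deeply sequenced, held 14.5% of all UMIs of the 50 genes in HFD and 24.8% in CD, beside 61.0% and 51.1% in endothelial-like and 16.4% and 11.9% in mesenchymal-like cells. The split by role was uneven, as the plot of UMI shares shows. Endothelial-like cells held 84.4% of nidogen and perlecan UMIs in HFD and 82.3% in CD, and 93.5% and 93.3% of those of the transmembrane collagens. They also held 69.6% (HFD) and 62.3% (CD) of laminin alpha chain UMIs and 75.6% and 75.9% of laminin beta chain UMIs. Fibrillar collagen UMIs lay in mesenchymal-like cells at 46.9% in HFD and 36.0% in CD.

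A class stood above the other 7 with counting intervals apart in both libraries for 23 of the 50 genes. It was the endothelial-like class for 11 genes, where 4.55% of all 16312 genes with at least 20 UMIs did so. It was the mesenchymal-like class for 10 genes, against 2.32% of all genes, and the ductal-like class for 2, against 3.24% of all genes.

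**Figure D2:**
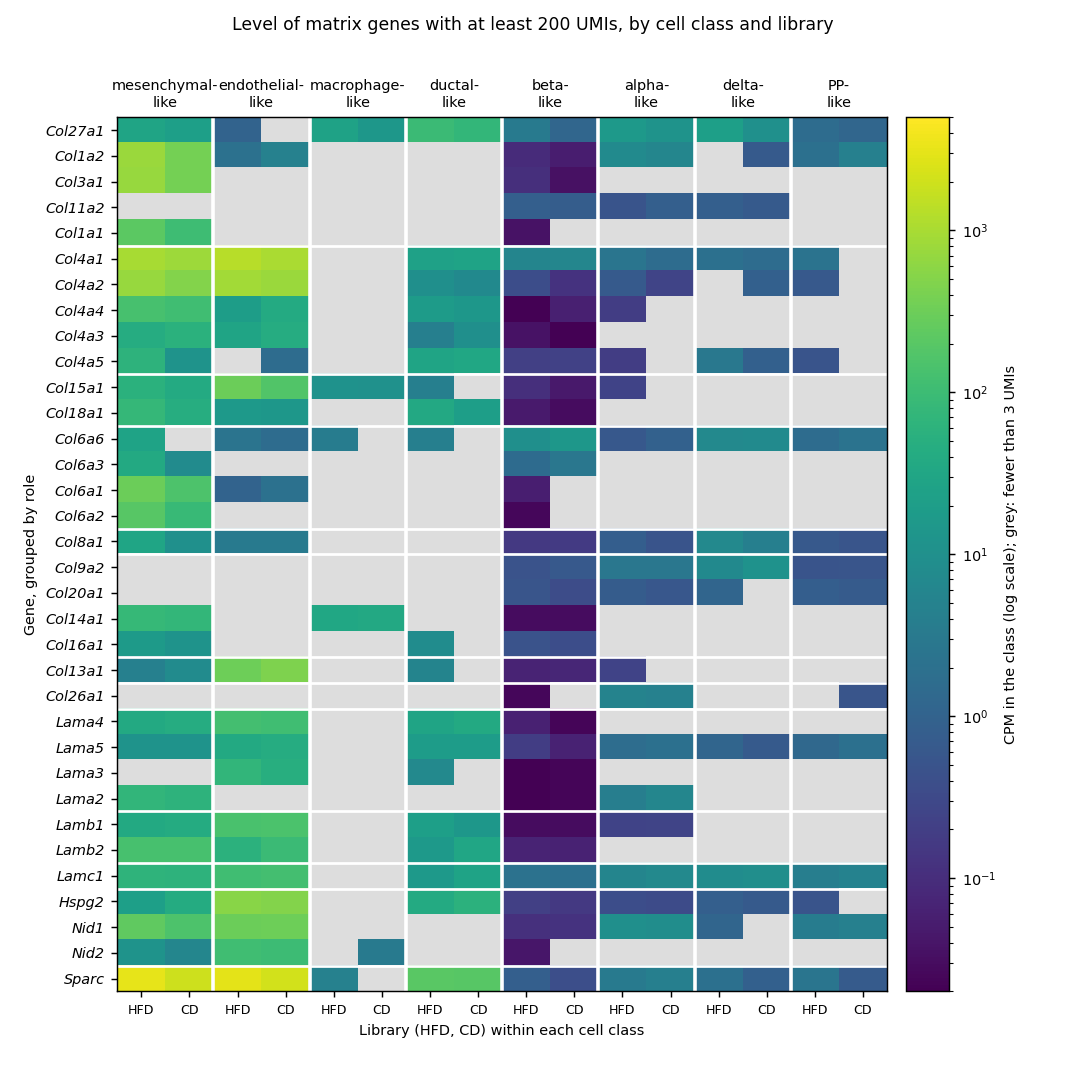
Level (colour, CPM on a log scale) of 34 genes with at least 200 UMIs, in rows grouped by role, in HFD and CD of each of 8 cell classes; grey marks fewer than 3 UMIs. Sparc, Col4a1 and Col4a2 are bright in both vascular classes, Col1a2, Col3a1, Col1a1, Col6a1 and Col6a2 in mesenchymal-like cells, and Col6a6 is the highest collagen VI row in beta-like and delta-like cells, with a higher level still in HFD mesenchymal-like cells (26.8 CPM).

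The main collagen IV chains were the most abundant network genes of the vessel wall. Positions are those of the GENCODE annotation of GRCm38. Col4a1 (ENSMUSG00000031502, chr8:11198423-11312826) stood in endothelial-like cells at 1297 CPM in HFD (interval 1256 to 1340) and 1052 CPM in CD (1007 to 1100). In mesenchymal-like cells it stood at 984 CPM in HFD (interval 910.1 to 1062) and 825 CPM in CD (747 to 909). The endothelial level was higher than that of the whole mesenchymal-like class in both libraries, with intervals apart. That class was mixed, and its subsets need not keep this order. In plain CPM (without TMM scaling) Col4a1 stood at 1323 in HFD and 1081 in CD in its pericyte-like cells. In its fibroblast-like cells Col4a1 stood at 1365 plain CPM in HFD and 1802 in CD. Col4a2 (ENSMUSG00000031503, chr8:11312805-11449287), its partner in the same trimer, stood at 899 CPM in HFD and 764 CPM in CD in endothelial-like cells and at 732 CPM in HFD and 508 CPM in CD in mesenchymal-like cells. Col4a1 made up 59.1% (HFD) and 57.9% (CD) of the pair's UMIs in endothelial-like cells and 57.3% and 61.9% in mesenchymal-like cells, so both classes held the pair in similar proportion. The genes overlap each other on opposite strands, and whether reads were counted by strand is not stated, which also applies to the other 12 of the 14 genes that overlap another gene (Nid1, Nid2, Lama2, Lama3, Lamb3, Lamc3, Col6a4, Col9a3, Col14a1, Col15a1, Col18a1 and Fn1).

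In beta-like cells the pair came apart. Col4a1 stood at 5.84 CPM in HFD and 6.15 CPM in CD, while Col4a2 stood at 0.376 CPM in HFD and 0.125 CPM in CD, and Col4a1 made up 93.9% of the pair's UMIs in HFD (92.3% to 95.3%) and 98.01% in CD (97.0% to 98.8%). In barcodes with 100 to 500 UMIs, taken here as free RNA, its share was 68.5% in HFD (62.6% to 73.9%) and 71.3% in CD (63.9% to 77.9%). The Col4a1 level of beta-like cells was 2.99 times in HFD and 4.97 times in CD the level that free RNA would bring (the larger of the levels estimated from barcodes with 10 to 100 and with 100 to 500 UMIs), and that of Col4a2 was below it, at 0.269 times in HFD and 0.167 times in CD. A class cannot hold less of a gene than free RNA truly brings, so this estimate was too high for Col4a2. Multiples of it are therefore rough throughout, and its error for other genes was not tested. With cells thinned to 1500 UMIs, a Col4a1 UMI was seen in 78.4% of HFD cells and 70.4% of CD cells of the endothelial-like class and 72.6% of HFD cells and 66.4% of CD cells of the mesenchymal-like class. It was seen in 0.744% of HFD cells and 1.03% of CD cells of the beta-like class and in 0 of 218 HFD and 0 of 160 CD macrophage-like cells, where 3 cells would still allow 1.38% and 1.88%. Median depths before thinning were 4600 and 4469 UMIs in endothelial-like cells, 23600 and 27011 in beta-like cells, and 4251 and 4802.5 in macrophage-like cells (HFD and CD), and unthinned shares were 94.3% in HFD and 89.5% in CD of endothelial-like, 87.0% in HFD and 78.5% in CD of mesenchymal-like and 13.4% in HFD and 17.9% in CD of beta-like cells.

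The chains of the second collagen IV network, known from the glomerular basement membrane of the kidney, were lower. Col4a4 (ENSMUSG00000067158, chr1:82448423-82586849) led in mesenchymal-like cells, at 134 CPM in HFD and 113 CPM in CD, against 19.9 CPM in HFD and 39.6 CPM in CD in endothelial-like cells. Col4a3 stood at 43.2 CPM in HFD and 56.6 CPM in CD in mesenchymal-like and 28.3 CPM in HFD and 43.8 CPM in CD in endothelial-like cells, with overlapping intervals. Col4a5 stood at 61.1 CPM in HFD and 12.1 CPM in CD in mesenchymal-like and 27.9 CPM in HFD and 33.6 CPM in CD in ductal-like cells.

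Of the laminin alpha chains Lama4 was shared by the vascular classes, and Lama2 was mesenchymal. Lama4, the chain of vascular basement membranes, stood at 123 CPM in HFD and 111 CPM in CD in endothelial-like cells and at 38.8 CPM in HFD and 44.5 CPM in CD in mesenchymal-like cells. Lama3 stood at 70.5 CPM in HFD and 48.6 CPM in CD and Lama5 at 37.7 CPM in HFD and 43.8 CPM in CD in endothelial-like cells, where Lama2 had only 1 UMI in HFD and 2 in CD. Lama2, known from the basement membrane of muscle, stood at 70.1 CPM in HFD and 62.7 CPM in CD in mesenchymal-like cells, where its interval overlapped that of Lama4 in both libraries. In the pericyte-like cells of that class Lama2 had 23 UMIs in HFD and 5 UMIs in CD and Lama4 23 UMIs in HFD and 19 UMIs in CD, while in the fibroblast-like cells Lama2 had 15 UMIs in HFD and 21 UMIs in CD and Lama4 1 in each library. It was also the leading alpha chain of alpha-like cells, at 4.17 CPM in HFD and 6.15 CPM in CD, or 10.3 times in HFD and 20.9 times in CD the level free RNA would bring, ahead of Lama5 at 1.68 CPM in HFD and 1.96 CPM in CD.

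Lamb1 stood at 143 CPM in HFD and 149 CPM in CD in endothelial-like cells and Lamb2 (ENSMUSG00000052911, chr9:108479736-108490530) at 131 CPM in HFD and 138 CPM in CD in mesenchymal-like cells, each beside the other chain at a lower level in the same class. Lamc1, the gamma chain of most laminins, had at least 11 UMIs in each library of every class except macrophage-like cells, where it had 1 in each. It stood at 109 CPM in HFD and 119 CPM in CD in endothelial-like cells, 8.53 CPM in HFD and 9.39 CPM in CD in delta-like, 5.67 CPM in HFD and 7.09 CPM in CD in alpha-like and 2.18 CPM in HFD and 2.01 CPM in CD in beta-like cells.

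The linker genes followed the endothelium. Hspg2 (ENSMUSG00000028763, chr4:137468769-137570630), which encodes perlecan, stood at 542 CPM in HFD and 507 CPM in CD in endothelial-like cells, and its next class was ductal-like at 40.4 CPM in HFD and 57.7 CPM in CD. Nid2 stood at 108 CPM in HFD and 101 CPM in CD in endothelial-like cells and at 11.9 CPM in HFD and 6.07 CPM in CD in mesenchymal-like cells. Nid1 (ENSMUSG00000005397, chr13:13437551-13512269) was shared, at 310.4 CPM in HFD and 318 CPM in CD in endothelial-like and 246 CPM in HFD and 154 CPM in CD in mesenchymal-like cells. Within the latter class, in plain CPM, Nid1 stood at 258 in HFD and 114 in CD in pericyte-like cells. In fibroblast-like cells Nid1 stood at 706 plain CPM in HFD and 587 in CD. It was also the main nidogen of alpha-like cells, at 9.96 CPM in HFD (interval 8.48 to 11.6) and 8.79 CPM in CD (7.18 to 10.7), against 0.111 CPM in HFD and 0.125 CPM in CD in beta-like cells. PP-like cells held Nid1 too, at 3.62 CPM in HFD and 4.54 CPM in CD. There 22 UMIs of Nid1 stood beside 1 of Nid2 in HFD, and 26 beside 0 in CD. In alpha-like cells 160 UMIs of Nid1 stood beside 1 of Nid2 in HFD, and 103 beside 0 in CD, and Nid1 was 12.3 times in HFD and 11.9 times in CD the level free RNA would bring.

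Other collagens of the basement membrane zone and the cell surface were mostly endothelial as well. Col15a1, whose protein joins basement membranes to the fibrils below, stood at 299.9 CPM in HFD and 168 CPM in CD in endothelial-like cells and at 11.3 CPM in HFD and 10.8 CPM in CD in macrophage-like cells. Mesenchymal-like cells held Col15a1 at 55.1 CPM in HFD and 40.4 CPM in CD. Among them, fibroblast-like cells held it at 353 plain CPM in HFD (interval 221 to 535) and 223 in CD (128 to 363). These levels rested on 22 UMIs in HFD and 16 in CD. Col13a1, a transmembrane collagen, stood at 322 CPM in HFD and 449.7 CPM in CD in endothelial-like cells and at 4.47 CPM in HFD and 8.09 CPM in CD in mesenchymal-like cells. Col18a1, the source of endostatin, was higher in mesenchymal-like cells (79.0 CPM in HFD and 46.5 CPM in CD) than in endothelial-like cells (16.1 CPM in HFD and 14.2 CPM in CD), with intervals apart in both libraries.

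Sparc (ENSMUSG00000018593, chr11:55394500-55423183) was the most abundant of the 50 genes, with 19524 UMIs over all barcodes that passed the cell filter. It stood at 3094 CPM in HFD (interval 2963 to 3230) and 1921 CPM in CD (1801 to 2047) in mesenchymal-like cells and at 3039 CPM in HFD (interval 2976 to 3104) and 2132 CPM in CD (2067 to 2199) in endothelial-like cells, with intervals that overlapped in HFD, while the endothelial level was the higher one in CD. The mesenchymal-like class was mixed. Its fibroblast-like cells held Sparc at 7689 plain CPM in HFD (interval 7016 to 8410) and 4903 in CD (4403 to 5444), above the endothelial-like level. Its pericyte-like cells held Sparc at 3360 plain CPM in HFD and 2108 in CD. Ductal-like cells held Sparc at 205 CPM in HFD and 202 CPM in CD. In beta-like cells it stood at 0.857 CPM in HFD and 0.393 CPM in CD, only 0.0941 times in HFD and 0.0874 times in CD the estimated level that free RNA would bring. The estimate was thus too high for Sparc as well. Fn1, which encodes fibronectin, was scarce, with 71 UMIs over both libraries.

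Fibrillar collagens marked the mesenchymal-like class. Col1a2 (ENSMUSG00000029661, chr6:4504814-4541544) stood at 765 CPM in HFD and 366 CPM in CD, Col3a1 (ENSMUSG00000026043, chr1:45311538-45349706) at 748 CPM in HFD and 374 CPM in CD and Col1a1 (ENSMUSG00000001506, chr11:94936224-94953042) at 216 CPM in HFD and 103 CPM in CD. Endothelial-like cells held no Col1a1 UMI in either library, where 3 UMIs would make 1.05 CPM in HFD and 1.58 CPM in CD. The collagen I chains did not keep together in alpha-like cells. There Col1a2 had 124 UMIs in HFD and 69 UMIs in CD while Col1a1 had 1 and 0. In mesenchymal-like cells Col1a2 made up 78.0% of the pair in both libraries, and in barcodes with 100 to 500 UMIs 77.0% in HFD (64.5% to 86.8%) and 87.1% in CD (70.2% to 96.4%), against 99.2% in HFD (95.6% to 99.98%) and every UMI in CD (at least 94.8%) in alpha-like cells. The Col1a2 level of alpha-like cells, 7.72 CPM in HFD and 5.89 CPM in CD, was 1.65 times in HFD and 3.81 times in CD the level free RNA would bring.

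Col27a1 (ENSMUSG00000045672, chr4:63214004-63334991), a fibrillar collagen known from cartilage, had another pattern. It was highest in ductal-like cells at 93.5 CPM in HFD and 74.5 CPM in CD, with intervals above those of every other class. Mesenchymal-like cells (28.3 CPM in HFD and 22.2 CPM in CD), macrophage-like cells (25.4 CPM in HFD and 14.05 CPM in CD), delta-like cells (22.8 CPM in HFD and 10.1 CPM in CD) and alpha-like cells (15.7 CPM in HFD and 11.7 CPM in CD) followed, with overlapping intervals except between delta-like and alpha-like cells in HFD. Beta-like cells stood apart below them at 3.43 CPM in HFD and 1.21 CPM in CD. Endothelial-like cells held 3 UMIs in HFD and 0 in CD. Col11a2, a minor fibril chain, stood below 1 CPM in beta-like cells, at 0.869 CPM in HFD and 0.792 CPM in CD.

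Collagen VI was divided between chains. Col6a1 (ENSMUSG00000001119, chr10:76708792-76726168) and Col6a2 (ENSMUSG00000020241, chr10:76595762-76623630), whose products form the core of the filament, stood in mesenchymal-like cells at 301 CPM in HFD and 152 CPM in CD and at 197 CPM in HFD and 87.0 CPM in CD, with at most 9 UMIs of either in any other class and library. Col6a6 (ENSMUSG00000043719, chr9:105687809-105828160) was the leading collagen VI gene of beta-like and delta-like cells. In alpha-like cells it stood at only 0.623 CPM in HFD and 0.939 CPM in CD, on 10 and 11 UMIs. In PP-like cells it stood at 1.65 CPM in HFD and 2.27 CPM in CD, on 10 and 13 UMIs. It stood at 9.64 CPM in HFD (interval 9.17 to 10.1) and 14.5 CPM in CD (13.9 to 15.0) in beta-like cells and at 6.83 CPM in HFD and 7.79 CPM in CD in delta-like cells, while HFD mesenchymal-like cells had the highest level, with 26.8 CPM in HFD and 4.04 CPM in CD in that class on 18 and 2 UMIs. In beta-like cells 1564 Col6a6 UMIs stood beside 9 of Col6a1 in HFD, and 2429 beside 2 in CD, and Col6a6 was 23.0 times in HFD and 34.1 times in CD the level free RNA would bring. With cells thinned to 1500 UMIs it was seen in 1.49% of HFD cells and 2.39% of CD cells of the beta-like class and 0.197% of HFD cells and 0.261% of CD cells of the alpha-like class, whose median depths were 7666 UMIs in HFD and 9380 in CD. Unthinned shares were 20.5% in HFD and 35.1% in CD of beta-like and 0.492% in HFD and 0.956% in CD of alpha-like cells. Col6a3 (ENSMUSG00000048126, chr1:90765923-90843971), the third chain of the classic trimer, stood at 37.3 CPM in HFD and 8.09 CPM in CD in mesenchymal-like cells and at 1.52 CPM in HFD and 2.78 CPM in CD in beta-like cells. In HFD beta-like cells that was 1.12 times the level free RNA would bring, and in CD 6.56 times.

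Of the fibril-associated collagens, Col14a1 stood at 82.0 CPM in HFD and 74.8 CPM in CD in mesenchymal-like and 32.9 CPM in HFD and 35.7 CPM in CD in macrophage-like cells, with no UMI in endothelial-like cells of either library. Col9a2 was highest in delta-like cells, at 7.40 CPM in HFD and 11.2 CPM in CD, followed by alpha-like cells at 2.80 CPM in HFD and 2.73 CPM in CD. Col16a1 stood at 17.9 CPM in HFD and 12.1 CPM in CD in mesenchymal-like and 0.475 CPM in HFD and 0.369 CPM in CD in beta-like cells, and Col20a1 at 0.543 CPM in HFD and 0.351 CPM in CD in beta-like cells. Col8a1, a short-chain collagen of vessel walls, stood at 29.8 CPM in HFD and 10.1 CPM in CD in mesenchymal-like and 6.83 CPM in HFD and 4.35 CPM in CD in delta-like cells. Col26a1 was an alpha-like gene, at 5.23 CPM in HFD and 4.78 CPM in CD, with at most 4 UMIs in any other class and library. The remaining 15 genes had 25 to 181 UMIs each over both libraries.

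**Figure D3:**
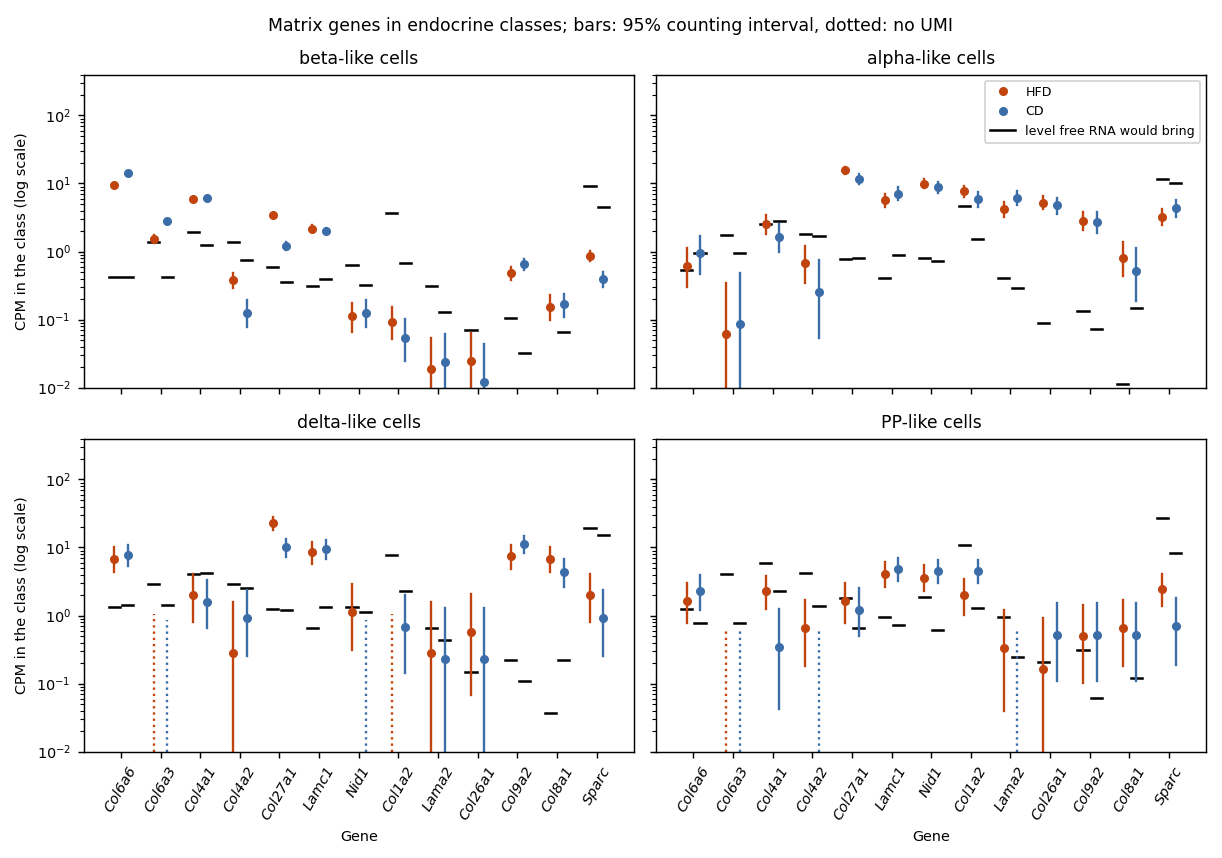
Level (y axis, CPM on a log scale) of 13 genes in beta-like, alpha-like, delta-like and PP-like cells, HFD left of CD; bars are 95% counting intervals and black dashes the level that free RNA would bring. Col6a6 in beta-like cells (9.64 CPM in HFD, 14.5 CPM in CD) and Nid1, Lama2 and Col26a1 in alpha-like cells lie above the dashes, while Sparc lies below them in all 4 classes. The dashes are rough estimates and were too high for Sparc.

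The comparison of diets asked in which cells these genes stood at another level on HFD than on CD. A gene was compared where a class held at least 20 UMIs over both libraries, and counted as higher or lower in HFD when it differed at least 1.5 times and the 95% counting interval of its ratio excluded 1. In mesenchymal-like cells 12 of the 29 compared genes were higher in HFD (41.4%) and 0 lower, where 5.98% of all 6400 compared genes were higher and 4.55% lower. Their median log2 ratio of HFD to CD was 0.53, against 0.03 over all compared genes. Scaling by total UMIs in place of TMM lowers every log2 ratio by 0.22 in mesenchymal-like, 0.10 in endothelial-like and 0.28 in ductal-like cells. In mesenchymal-like cells it gave 8 higher and 2 lower (Hspg2 and Lamc3). The share of all genes called under that scaling is not given here, so this count has no background beside it. Per cell, the 50 genes made up a median of 0.8003% of UMIs in HFD (quartiles 0.548% to 1.13%) and 0.492% in CD (0.294% to 0.866%), so the cells of both libraries overlapped widely.

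Both collagen I genes and Col3a1 were higher together in HFD mesenchymal-like cells. Col1a2 had 513 UMIs in HFD and 181 UMIs in CD, or 765 CPM in HFD (interval 699.9 to 834) and 366 CPM in CD (315 to 423), a log2 ratio of 1.06 (0.82 to 1.32). Col3a1 stood at 748 CPM in HFD (interval 684 to 817) and 374 CPM in CD (322 to 432), a log2 ratio of 1.00 (0.75 to 1.25). Col1a1 had 145 UMIs in HFD and 51 UMIs in CD, a log2 ratio of 1.07 (0.60 to 1.56). In each case the intervals of the levels did not overlap between libraries. Of the other fibrillar genes, Col5a2 (0.53), Col5a3 (0.50), Col5a1 (0.64) and Col27a1 (0.35) did not pass, so 3 of 7 were higher. Col1a2 (0.77 to 1.59) and Col3a1 (0.71 to 1.46) stayed past 1.5-fold in every alternative, as did Col6a1 (0.65 to 1.60). Col1a1 was under the 1.5-fold limit, at a log2 ratio of 0.27 to 0.43, when each cell was named by its own marker score, at Leiden resolution 2, or with 2 times as many doublets removed.

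Of the 6 collagen VI genes 4 had enough UMIs to be compared, and these were higher. Col6a1 stood at 301 CPM in HFD (interval 261 to 346) and 152 CPM in CD (119 to 190.1), a log2 ratio of 0.99 (0.60 to 1.39). Col6a2 had 132 UMIs in HFD and 43 UMIs in CD, a log2 ratio of 1.18 (0.67 to 1.71), which was 0.44 with 2 times as many doublets removed. Col6a3 and Col6a6 were called on few UMIs, 25 in HFD and 4 in CD, and 18 in HFD and 2 in CD. Other genes called on fewer than 50 UMIs over both libraries were Col4a5, with 41 UMIs in HFD and 6 UMIs in CD, and Col8a1, with 20 UMIs in HFD and 5 UMIs in CD. All of these low-count genes reached the minimum of 20 UMIs mostly through HFD, where the class held 723225 UMIs against 458720 in CD. Their calls therefore partly follow from the selection.

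Sparc stood at 3094 CPM in HFD (interval 2963 to 3230) and 1921 CPM in CD (1801 to 2047), a log2 ratio of 0.69 (0.58 to 0.80). Nid1 had 165 UMIs in HFD and 76 UMIs in CD, a log2 ratio of 0.68 (0.28 to 1.09), and Col18a1 had 53 UMIs in HFD and 23 UMIs in CD, a log2 ratio of 0.76 (0.03 to 1.54). These 3 calls ended with total UMI scaling, at 0.47, 0.46 and 0.55. Sparc was also at 0.58 with every cell counted alike and at 0.54 with at most 10% mitochondrial UMIs, where Nid1 was at 0.46, and Col18a1 turned to -0.41 among cells with at least 3000 UMIs. The main network genes did not pass. Col4a1 had a log2 ratio of 0.25 (0.07 to 0.44) and Col4a2 of 0.53 (0.31 to 0.75), and none of the 6 compared laminins passed, with log2 ratios from -0.90 for Lamc3 to 0.16 for Lama2.

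**Figure D4:**
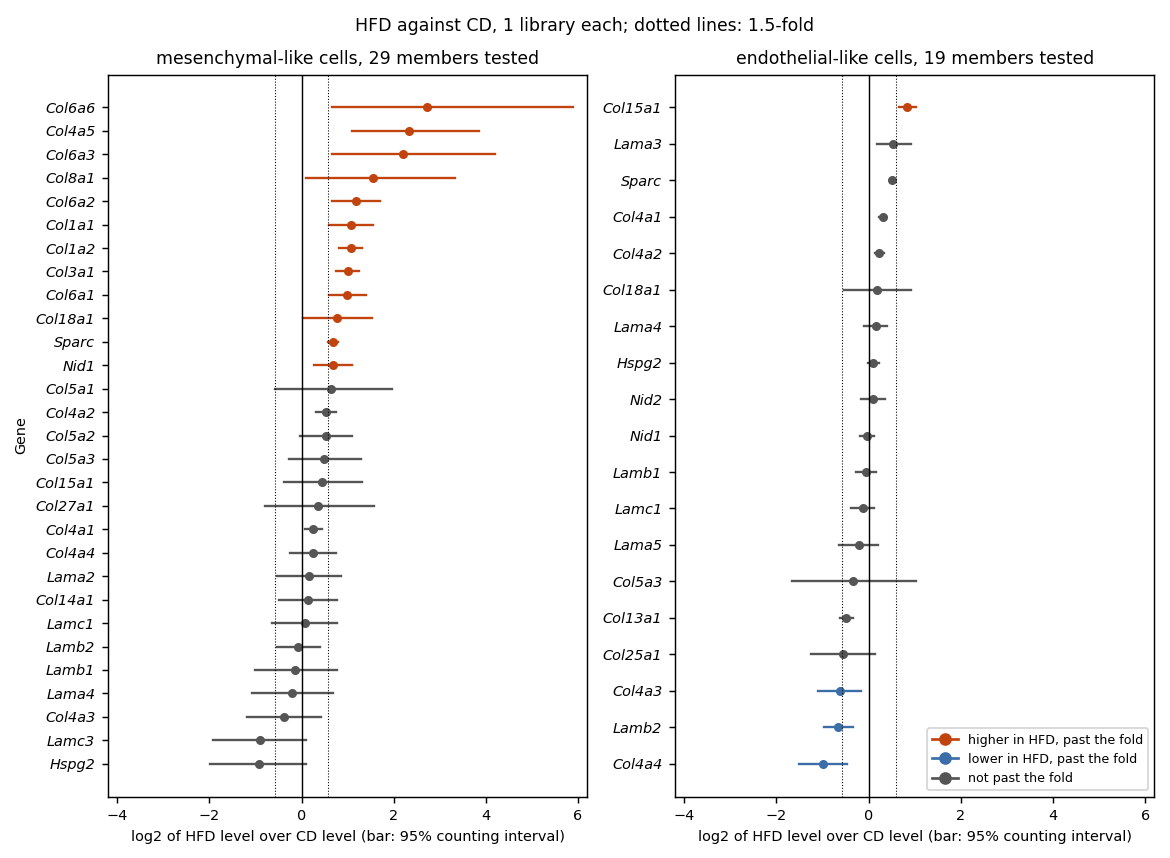
Log2 ratio of the HFD level to the CD level (x axis) of each compared gene in mesenchymal-like (29 genes) and endothelial-like cells (19 genes); bars are 95% counting intervals, dotted lines mark 1.5-fold, orange is higher and blue lower in HFD. In mesenchymal-like cells the 12 orange points include the 4 compared collagen VI genes, of which Col6a3 and Col6a6 rest on few UMIs, mostly from HFD. In endothelial-like cells 1 point is orange and 3 are blue.

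The mesenchymal-like class held pericyte-like cells (150 in HFD, 88 in CD), fibroblast-like cells (23 and 27), smooth muscle-like cells (3 and 18) and 2 unnamed subclusters, of which one (21 and 14 cells) was led by endocrine genes and had Ins2 at 32.9% of its UMIs in HFD and 27.8% in CD. Without the unnamed subclusters 11 of 27 genes were higher in HFD and 0 lower. With free RNA subtracted (barcodes of 10 to 100 UMIs) 13 of 28 were higher and 1 lower. For neither of these counts is the share over all genes given. Within pericyte-like cells 7 of 18 compared genes were higher, where 5.60% of all 4375 genes were, and 0 lower (2.99% of all). Within fibroblast-like cells 7 of 19 were higher, where 7.63% of all 930 genes were, and 0 lower (6.67% of all).

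Col1a2, Col3a1, Col6a1 and Sparc were higher in HFD in both subsets. Col1a2 had log2 ratios of 1.28 (0.79 to 1.79) in pericyte-like and 1.26 (0.94 to 1.60) in fibroblast-like cells. Col3a1 had log2 ratios of 1.72 (1.16 to 2.32) and 1.05 (0.73 to 1.37) in the same order, and Col6a1 of 0.97 (0.39 to 1.59) and 0.97 (0.34 to 1.63). Sparc had 0.85 (0.69 to 1.00) and 0.72 (0.52 to 0.92). Nid1 passed in pericyte-like cells at 1.36 (0.72 to 2.06), as did Lama2 (23 UMIs in HFD and 5 UMIs in CD) and Col4a5 (22 UMIs in HFD and 5 UMIs in CD) on fewer than 50 UMIs. Col1a1 at 1.498 (0.99 to 2.02) and Col6a2 at 2.41 (1.49 to 3.45) passed in fibroblast-like cells, as did Col6a3 (17 UMIs in HFD and 4 UMIs in CD). Col4a1 had 0.47 (0.24 to 0.69) in pericyte-like and -0.33 (-0.74 to 0.08) in fibroblast-like cells and passed in neither, and Col4a2 had 0.56 (0.30 to 0.83) in pericyte-like cells. Whether ratios differed between the subsets was not tested.

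The subsets themselves differed in which collagens they held, in plain CPM of each subset. Col1a1 stood at 1766 CPM in HFD and 657 CPM in CD in fibroblast-like cells, against 3 UMIs in HFD and 0 in CD in pericyte-like cells. Col14a1 had 34 UMIs in HFD and 31 UMIs in CD in fibroblast-like cells and 0 in pericyte-like cells of both libraries. Col3a1 stood at 3612 CPM in HFD and 1830 CPM in CD in fibroblast-like and 411 CPM in HFD and 141 CPM in CD in pericyte-like cells. Col4a4 leaned the other way, with 194 CPM in HFD and 191 CPM in CD in pericyte-like and 80.3 CPM in HFD and 126 CPM in CD in fibroblast-like cells. The fibroblast-like values of Col4a4 rested on 5 UMIs in HFD and 9 in CD, and the intervals overlapped in both libraries. Fibroblast-like cells made up 11.1% of the mesenchymal-like class in HFD and 18.1% in CD, and smooth muscle-like cells, which had the 50 genes at 4730 plain CPM in HFD and 2254 in CD, 1.44% in HFD and 12.1% in CD. The part of these shares in the class ratios was not tested.

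**Figure D5:**
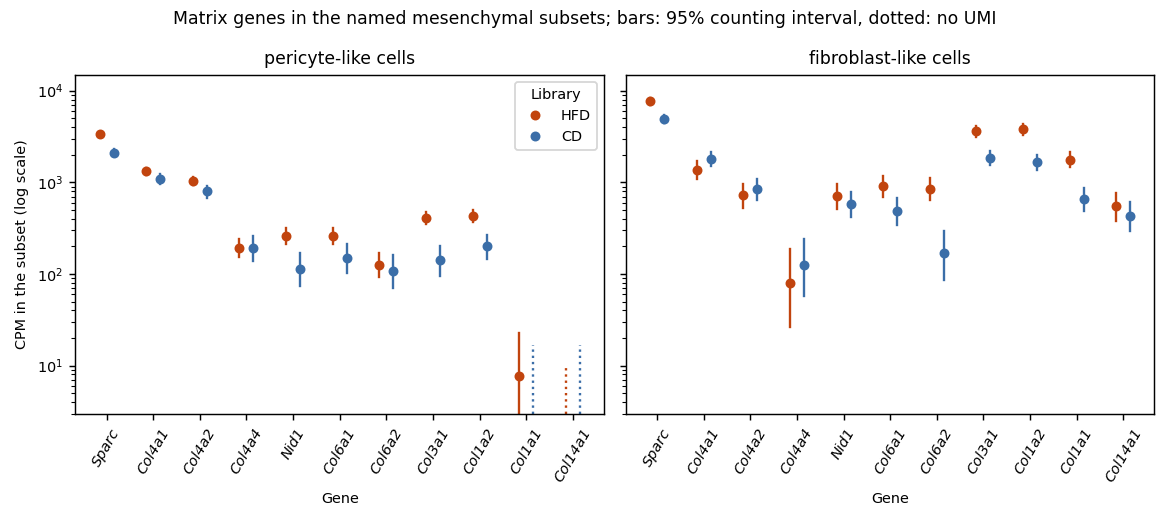
Level (y axis, plain CPM on a log scale) of 11 genes in pericyte-like and fibroblast-like cells, HFD left of CD; bars are 95% counting intervals and dotted bars mark no UMI. Col1a2, Col3a1, Col6a1 and Sparc lie higher in HFD in both panels, and Col1a1 and Col14a1 are near or at 0 in pericyte-like cells.

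In endothelial-like cells Col15a1 was higher and Col4a3, Col4a4 and Lamb2 were lower in HFD. Of 19 compared genes 1 was higher in HFD, where 6.14% of all 9983 genes were, and 3 were lower, where 3.70% of all were, with a median log2 ratio of -0.04 against -0.01 over all genes. Col15a1 (ENSMUSG00000028339, chr4:47208161-47313167) was the higher one. It had 859 UMIs in HFD and 318 UMIs in CD, or 299.9 CPM in HFD (interval 280.2 to 321) and 168 CPM in CD (149.9 to 187), a log2 ratio of 0.84 (0.65 to 1.03). It stayed past 1.5-fold in every alternative tried, at log2 ratios from 0.73 to 0.98.

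The lower genes were Col4a3 and Col4a4, partners in 1 trimer, and Lamb2. Col4a4 had 57 UMIs in HFD and 75 UMIs in CD, a log2 ratio of -0.99 (-1.52 to -0.48). Col4a3 had 81 UMIs in HFD and 83 UMIs in CD, a log2 ratio of -0.63 (-1.09 to -0.17), and was above the limit, at -0.57 to -0.49, without doublet removal, with free RNA subtracted or with at least 3000 UMIs per cell. Lamb2 stood at 59.3 CPM in HFD (interval 50.8 to 69.0) and 93.4 CPM in CD (80.2 to 108), a log2 ratio of -0.65 (-0.97 to -0.34), and was at -0.55 to -0.54 with free RNA subtracted or cells named by their own marker score. The 3 genes with most UMIs did not pass, although the intervals of their ratios excluded 1. Sparc stood at 3039 CPM in HFD (interval 2976 to 3104) and 2132 CPM in CD (2067 to 2199), a log2 ratio of 0.51 (0.46 to 0.57). Col4a1 had 0.30 (0.22 to 0.38) and Col4a2 0.23 (0.14 to 0.33).

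In macrophage-like cells 1 of 4 compared genes was higher in HFD, where 5.47% of all genes were, and 0 lower (4.08% of all). This was Fn1, with 20 UMIs in HFD and 3 in CD, a log2 ratio of 2.54 (0.78 to 4.93). Fn1 reached the minimum of 20 UMIs mostly through HFD, so its call partly follows from the selection. The 3 genes with most UMIs there were Col14a1 at -0.12 (-0.84 to 0.61), Col27a1 at 0.85 (-0.15 to 1.93) and Fn1. In ductal-like cells 0 of 13 were higher (4.97% of all genes) and 0 lower (4.24% of all), on 59 HFD and 20 CD cells. These cells also differed in hormone RNA, with beta markers at 156969 CPM in HFD and 17774 in CD and an estimated free RNA share (10 to 100 UMIs) of 34.5% in HFD and 3.30% in CD, whose part in the ratios was not tested. Sparc had a log2 ratio there of 0.02 (-0.37 to 0.43), Col27a1 of 0.33 (-0.31 to 0.99) and Hspg2 of -0.51 (-1.34 to 0.33).

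In beta-like cells 6 of 27 compared genes were higher in HFD, where 6.95% of all 14492 genes were, and 2 lower, where 5.99% were. With total UMI scaling 5 were higher and 3 lower, for which the share over all genes is not given. The libraries filled different beta-like clusters. Most HFD cells lay in cluster 0, led by Cox6a2 and Dapl1 (3362 in HFD and 114 in CD), and cluster 100, led by Pdyn and Sorl1 (1854 in HFD and 169 in CD). Most CD cells lay in cluster 300, led by Msln and Cd79a (134 in HFD and 2781 in CD), and cluster 200, led by Trpm5 and T2 (586 in HFD and 1651 in CD). Cluster 600, led by the cell cycle genes Cenpf and Top2a, held 255 HFD and 310 CD cells. Col27a1 had 556 UMIs in HFD and 203 UMIs in CD, or 3.43 CPM in HFD (interval 3.15 to 3.73) and 1.21 CPM in CD (1.05 to 1.39), a log2 ratio of 1.505 (1.27 to 1.74). Within clusters it had 0.67 (-0.39 to 2.00) in cluster 0, 1.04 (-0.21 to 2.68) in cluster 100, 0.10 (-0.69 to 0.82) in cluster 200, -1.75 (-7.07 to 0.76) in cluster 300 and 2.05 (1.09 to 3.10) in cluster 600, and only the cluster 600 interval excluded equal levels. Sparc at 1.13 (0.69 to 1.57) and Col4a2 at 1.59 (0.85 to 2.38) also passed, at levels below the estimate of what free RNA would bring in both libraries. Within clusters Sparc had -0.58 (-2.20 to 1.74) in cluster 0, 0.69 (-0.61 to 1.86) in cluster 200, 0.82 (-2.28 to 2.78) in cluster 300 and 2.83 (1.51 to 4.40) in cluster 600, with 43 UMIs in HFD and 0 in CD in cluster 100. Col4a2 was at 0.48 with every cell counted alike. Col20a1 passed at 0.63 (0.14 to 1.13), and was between 0.19 and 0.58 with total UMI scaling, thinned cells, at most 10% mitochondrial UMIs or free RNA (10 to 100 UMIs) subtracted. On fewer than 50 UMIs Lama5 (31 UMIs in HFD and 11 UMIs in CD) and Col3a1 (17 UMIs in HFD and 6 UMIs in CD) were higher and Col6a5 (7 UMIs in HFD and 23 UMIs in CD) lower. Col3a1 also lay below the free RNA estimate in both libraries, and Lama5 stood near it. With free RNA of barcodes with 10 to 100 UMIs subtracted 1 of 17 was higher and 3 lower.

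The collagen VI genes with most UMIs in beta-like cells had lower levels in HFD. Col6a3 had 247 UMIs in HFD and 467 UMIs in CD, a log2 ratio of -0.87 (-1.10 to -0.64). Within clusters it had -2.02 (-2.70 to -1.26) in cluster 0, -0.35 (-1.53 to 1.14) in cluster 100, -1.40 (-2.24 to -0.66) in cluster 200 and -1.94 (-3.34 to -0.78) in cluster 600, with 0 UMIs in HFD and 223 in CD in cluster 300. Col6a6 had 1564 UMIs in HFD and 2429 UMIs in CD, a log2 ratio of -0.58 (-0.68 to -0.49), just short of 1.5 times. It was below 0 in each of the 5 clusters, at -0.68 (-1.13 to -0.19) in cluster 0, -0.61 (-1.02 to -0.17) in cluster 100, -0.51 (-0.79 to -0.24) in cluster 200, -0.39 (-0.91 to 0.09) in cluster 300 and -0.77 (-1.23 to -0.32) in cluster 600. Col4a1, second in UMIs after Col6a6, had -0.07 (-0.20 to 0.05).

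In alpha-like cells 0 of 12 genes were higher (5.35% of all genes) and 0 lower (2.71% of all). Col27a1 had 0.42 (0.12 to 0.73), Nid1 0.18 (-0.19 to 0.55) and Col1a2 0.39 (-0.05 to 0.84) there as log2 ratios. In delta-like cells 1 of 7 was higher (5.01% of all) and 0 lower (3.89% of all). This was again Col27a1, with 80 UMIs in HFD and 44 UMIs in CD, or 22.8 CPM in HFD (interval 18.0 to 28.3) and 10.1 CPM in CD (7.32 to 13.5), a log2 ratio of 1.17 (0.63 to 1.74). Col9a2 had -0.60 (-1.35 to 0.11) and Lamc1 -0.14 (-0.87 to 0.58) in these cells. In PP-like cells 1 of 5 was lower (3.06% of all) and 0 higher (4.17% of all), Col1a2 with 12 UMIs in HFD and 26 UMIs in CD, a log2 ratio of -1.20 (-2.32 to -0.16), at 0.181 times in HFD and 3.58 times in CD the level free RNA would bring. Lamc1 had -0.25 (-1.09 to 0.58) and Nid1 -0.33 (-1.22 to 0.55).

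Genes that process collagen were read beside the collagens in the same cells. In mesenchymal-like cells 6 of 21 compared processing genes were higher in HFD and 1 lower, with a median log2 ratio of 0.40. Of all genes in these cells 5.98% were higher and 4.55% lower. Serpinh1, the collagen chaperone of the endoplasmic reticulum, had 0.70 (0.38 to 1.03), and Pcolce, which enhances procollagen cleavage, 0.85 (0.41 to 1.303). Loxl2, a collagen crosslinking enzyme, had 1.35 (0.71 to 2.04), whereas Lox had -1.33 (-2.38 to -0.34). Ppib, a prolyl isomerase, did not pass at 0.22 (-0.08 to 0.52). Of 20 genes of matrix degradation and its inhibitors 1 was higher, Adamts4 at 1.37 (0.01 to 2.97), and 2 lower, the inhibitor Timp3 at -0.65 (-0.79 to -0.51) and the plasminogen activator Plat at -1.03 (-1.40 to -0.65), with a median of -0.13. Ctsl had -0.06 (-0.32 to 0.20) and Timp2 -0.27 (-0.58 to 0.03). Of 16 matrix receptors 5 were higher and 0 lower (5.98% and 4.55% of all genes), among them the collagen receptor chain Itga1 at 0.63 (0.36 to 0.91) and Itgav at 1.37 (0.49 to 2.34), with a median of 0.32. Itgb1 had -0.02 (-0.22 to 0.18) and Sdc2 0.37 (-0.03 to 0.79). The shift of 0.22 with total UMI scaling would take Serpinh1 and Itga1 under 1.5-fold, and the counts of these lists were not redone under that scaling.

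Of 32 other matrix genes in mesenchymal-like cells 3 were higher and 6 lower (5.98% and 4.55% of all genes), with a median of 0.10. The proteoglycan Dcn was lower, at -1.12 (-1.26 to -0.99), and Thbs1 had -2.71 (-4.27 to -1.42) on 6 UMIs in HFD and 29 in CD. Postn, which encodes periostin, was higher at 2.83 (1.62 to 4.34), with 58 UMIs in HFD and 6 in CD. Bgn at 0.22 (0.04 to 0.40) and Aspn at 0.30 (0.12 to 0.48) did not pass. Of 12 ligands and receptors of TGF-beta and PDGF signalling 0 were higher and 1 lower, Tgfbr3 at -0.73 (-1.45 to -0.01), with a median of 0.03. Pdgfrb had 0.12 (-0.14 to 0.38), Pdgfa 0.24 (-0.05 to 0.53) and Eng 0.01 (-0.47 to 0.51).

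In endothelial-like cells 4 of 20 processing genes were higher and 1 lower, with a median of 0.05, where 6.14% of all genes were higher and 3.70% lower. P4hb, a subunit of prolyl hydroxylase, had 0.61 (0.37 to 0.85) and Crtap 1.18 (0.64 to 1.75), and P3h4 was lower at -1.20 (-2.03 to -0.40). Serpinh1 had 0.55 (0.39 to 0.71) and Ppib -0.06 (-0.21 to 0.10). The shift of 0.10 with total UMI scaling would take P4hb under 1.5-fold. Of 17 degradation genes 1 was higher, Adamts9 at 1.47 (0.93 to 2.05), and 0 lower, with Timp3 at 0.20 (0.16 to 0.24), Ctsl at -0.55 (-0.65 to -0.45) and Adamts1 at 0.56 (0.40 to 0.72). Of 16 receptors 0 were higher and 1 lower (6.14% and 3.70% of all genes), Itgb5 at -0.63 (-0.92 to -0.33), with Itgb1 at -0.31 (-0.43 to -0.20), Itga1 at 0.14 (0.02 to 0.26) and Itga6 at 0.22 (0.05 to 0.39). Of 26 other matrix genes 2 were higher and 3 lower (6.14% and 3.70% of all genes). Npnt had 1.78 (0.38 to 3.52) and Aspn -2.45 (-3.79 to -1.29), both on fewer than 50 UMIs, and the abundant Egfl7 at -0.18 (-0.24 to -0.13), Sparcl1 at -0.06 (-0.17 to 0.04) and Mmrn2 at 0.35 (0.23 to 0.48) did not pass. Of 11 TGF-beta and PDGF genes 0 were higher and 1 lower, Pdgfrb at -1.73 (-2.98 to -0.60) on 10 UMIs in HFD and 22 in CD, while Eng had -0.13 (-0.21 to -0.05), Acvrl1 -0.15 (-0.30 to 0.00) and Tgfb1 0.05 (-0.12 to 0.22).

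The promoters of the genes called higher in HFD mesenchymal-like cells on at least 50 UMIs were set beside those of all 50 genes, which include them. RefSeq gave 9 windows for 7 of these 8 genes. A GC box stood in 55.6% of them, a CCAAT box in 33.3% and a TATA box in 11.1%, beside the 65.0%, 32.5% and 7.5% of all 40 windows of the 50 genes.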

How the data were processed

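Single-cell RNA was measured in 1 HFD and 1 CD islet library. The deposited values are raw UMI counts per gene and barcode, which the authors made with Cell Ranger 6.0.1 on mm10, per the submitters' processing notes; per the file headers the software version was 3.0.2. No source used here gives the annotation release. All 6794880 possible barcodes of each library are listed, so cells were chosen here: at least 1500 UMIs, at least 500 genes and at most 15% mitochondrial UMIs, which left 12062 HFD and 9667 CD barcodes. Scrublet in scanpy 1.11.5 (Python 3.11.15) ranked likely doublets, and the top 0.8% per 1000 barcodes were removed (1164 HFD, 748 CD). Cells were clustered on 2000 variable genes without the 50 genes (30 components, 15 neighbours, Leiden resolution 1, igraph 0.11.9) and named from marker lists; the scoring rule was set after seeing the data.

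UMIs were summed by class and scaled by TMM (edgeR 4.0.16, R 4.3.3). Ratios carry exact conditional binomial 95% intervals and levels exact Poisson intervals (SciPy 1.17.1), which cover counting error only. The ratio method was tested on simulated data. Free RNA in each class was estimated from UMIs of genes foreign to it. Genes with at least 200 UMIs are named with levels, and ratios are named for those past 1.5-fold on at least 50 UMIs in a class and for the 3 with most UMIs there; of the other lists, the 3 genes with most UMIs and the farthest past 1.5-fold each way. Pairs named on fewer UMIs were chosen after their values were seen. The values of 1 gene are not reported here. Genes and lists were chosen with earlier results of these data known. Alternatives were other scalings (total UMIs, DESeq2 1.42.0 size factors, every cell counted alike), thinned cells, other cell, gene and fold limits, other doublet removal, other clusterings and free RNA subtraction.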

Additional observations from a re-analysis of the deposited data

Results flagged for a closer look

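Col1a2 and Col6a3 were past 1.5-fold in opposite directions in different cell classes under the same diet contrast. Col1a2 had a log2 ratio of HFD to CD of 1.06 in mesenchymal-like cells and of -1.20 in PP-like cells, where it rested on 12 UMIs in HFD and 26 in CD. Col6a3 had a log2 ratio of 2.20 in mesenchymal-like cells, on 25 UMIs in HFD and 4 in CD, and of -0.87 in beta-like cells. The Col1a2 call in PP-like cells and the Col6a3 call in mesenchymal-like cells rested on few UMIs, mostly from the library with the higher level. These calls can therefore partly follow from the minimum UMI count set for a comparison. In HFD, Col1a2 in PP-like cells lay below the rough estimate of what free RNA would bring, and Col6a3 in beta-like cells lay near it. In CD each lay above it. The difference between the classes was not tested for either gene, since there was 1 library per diet.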

How the results depend on the processing

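No paired analysis was possible because each diet had 1 library, so the groups share a single replicate number. Of the single log2 ratios under the alternatives 212 stayed within the counting interval of the reported ratio, 27 moved outside it with the same sign, and 1 turned round, Col18a1 in mesenchymal-like cells at -0.41 with at least 3000 UMIs per cell. The count of genes past the limit in mesenchymal-like cells was 7 at a fold of 2, and lay between 7 and 14 over all alternatives; in endothelial-like cells it was 0 at a fold of 2. In beta-like cells it was 5 with a minimum of 50 UMIs, 2 with cells thinned to 1500 UMIs, 4 with free RNA (10 to 100 UMIs) subtracted, and 25 (21 higher, 4 lower; median 1.26) with each cell named by its own marker score. In alpha-like cells it was 1 with every cell counted alike, at resolution 2 and under both free RNA subtractions. The endothelial-like median was 0.22 with thinned cells. The share of all UMIs of the 50 genes in HFD endothelial-like cells was 57.3% by marker score, 65.2% with at least 3000 UMIs, 62.3% with at most 10% mitochondrial UMIs, 60.4% when clustered with the 50 genes and at resolution 2, 64.6% with 2 times the doublets removed and 62.2% with none removed; in CD it was 54.3% with at least 3000 UMIs and 53.1% with 2 times the doublets. In mesenchymal-like cells these shares were 12.5% (HFD) and 9.85% (CD) by marker score, 13.9% and 10.9% without unnamed subclusters, 9.57% and 4.63% with at least 3000 UMIs, 14.6% and 11.4% with at most 10% mitochondrial UMIs, 10.4% and 7.05% at resolution 2, 11.3% and 7.23% with 2 times the doublets, and 13.7% and 10.6% with none removed. At their own depth 94.3% of HFD and 89.5% of CD endothelial-like cells had a Col4a1 UMI, and 20.5% and 35.1% of beta-like cells a Col6a6 UMI. The cause was not tested for any of these. Shares of all genes past the limit are given for the main setting and the mesenchymal subsets only, so counts under the alternatives have no background here. The sets without unnamed subclusters, within subsets, within beta-like clusters and with the 100 to 500 UMI free RNA profile were chosen after seeing the data. Depth limited the comparison to genes with at least 20 UMIs in a class, which let 4 of the 50 genes be compared in macrophage-like, 5 in PP-like, 7 in delta-like and 29 in mesenchymal-like cells. In any class, calls on fewer than 50 UMIs can partly follow from this minimum.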
